A study of Mus musculus with 8 samples.

Results

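Transcripts of 10 genes that pump, buffer or release calcium in muscle (Atp2a1, Atp2a2, Sln, Pvalb, Sri, Itpr1, Itpr2, Itpr3, Orai1 and Stim1) were followed in mouse gastrocnemius with and without a targeted deletion of the glucocorticoid receptor. They were taken by gene symbol from a count table of 48709 genes, and all 10 were found. RNA was from the gastrocnemius, a mixed calf muscle dominated by fast fibres, of 16-week-old C57BL/6 mice. The 4 control libraries came from GR floxed mice, which carry the receptor gene Nr3c1 with recombination sites but no labelled recombinase. The 4 libraries labelled knockout (genotype GR(i)skm-/-) came from GR floxed mice crossed to HSA-Cre-ERT2 mice, in which a skeletal actin promoter drives an inducible Cre recombinase in myofibres. Cells of the muscle other than myofibres keep the receptor in this model, and whole-muscle RNA holds their transcripts too.

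Muscle fibres contract when calcium leaves the sarcoplasmic reticulum and relax when it is pumped back. The pumps are the SERCA calcium ATPases, encoded in fast fibres by Atp2a1 and in slow fibres by Atp2a2, and the small membrane peptide sarcolipin (Sln) binds and restrains them. Parvalbumin (Pvalb) is a soluble calcium buffer of fast fibres, and sorcin (Sri) is a calcium-binding regulator of calcium channels and pumps. Itpr1, Itpr2 and Itpr3 encode the inositol trisphosphate (IP3) receptors, calcium release channels that are distinct from the ryanodine receptor of contraction. Stim1 senses the filling of the store, and Orai1 is the plasma membrane channel that STIM1 opens when the store empties.

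Libraries are called A to D (control) and E to H (labelled knockout) and held 36680510 to 52200305 counts. Levels are given as CPM, the count scaled to a common library total, after TMM, a factor per library under which most genes are level. The targeted gene followed its label in part: Nr3c1 was at 83.2 to 90.0 CPM in control, at 38.6 CPM in F and 42.8 CPM in H, but at 87.1 CPM in E and 96.7 CPM in G. Its edgeR adjusted p was 0.452, and a two-sided exact permutation test (70 arrangements) gave p = 0.371, where the smallest possible p is 0.0286. Directions below are therefore those of the libraries labelled knockout. The fibre genes Acta1, Ckm, Ttn, Des and Mb, which mark the labelled tissue, summed to 76484 to 93560 CPM in control and 68008 to 76960 CPM in the libraries labelled knockout. Of these 5, Acta1 (skeletal actin) fell, with a log2 fold change of -0.33 (edgeR adjusted p = 0.0176), and 4 did not pass. In such bulk RNA, fewer cells of a type and less RNA per cell cannot be told apart.

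Of the 10 genes, 1 rose and 2 fell in the libraries labelled knockout by edgeR's quasi-likelihood test (Benjamini-Hochberg adjusted p under 0.05 over the 14712 genes tested). Itpr1 rose 1.54-fold, Itpr3 fell to 0.744 of control and Orai1 to 0.818 of control. Over all genes tested, 8.45% were called, 4.04% higher and 4.41% lower. The median log2 fold change was -0.08 over the 10 genes and -0.01 over all genes. In 3 of the 10 genes, the same Itpr1, Itpr3 and Orai1, the libraries of the groups did not overlap, as in 16.7% of all genes tested.

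**Figure D1:**
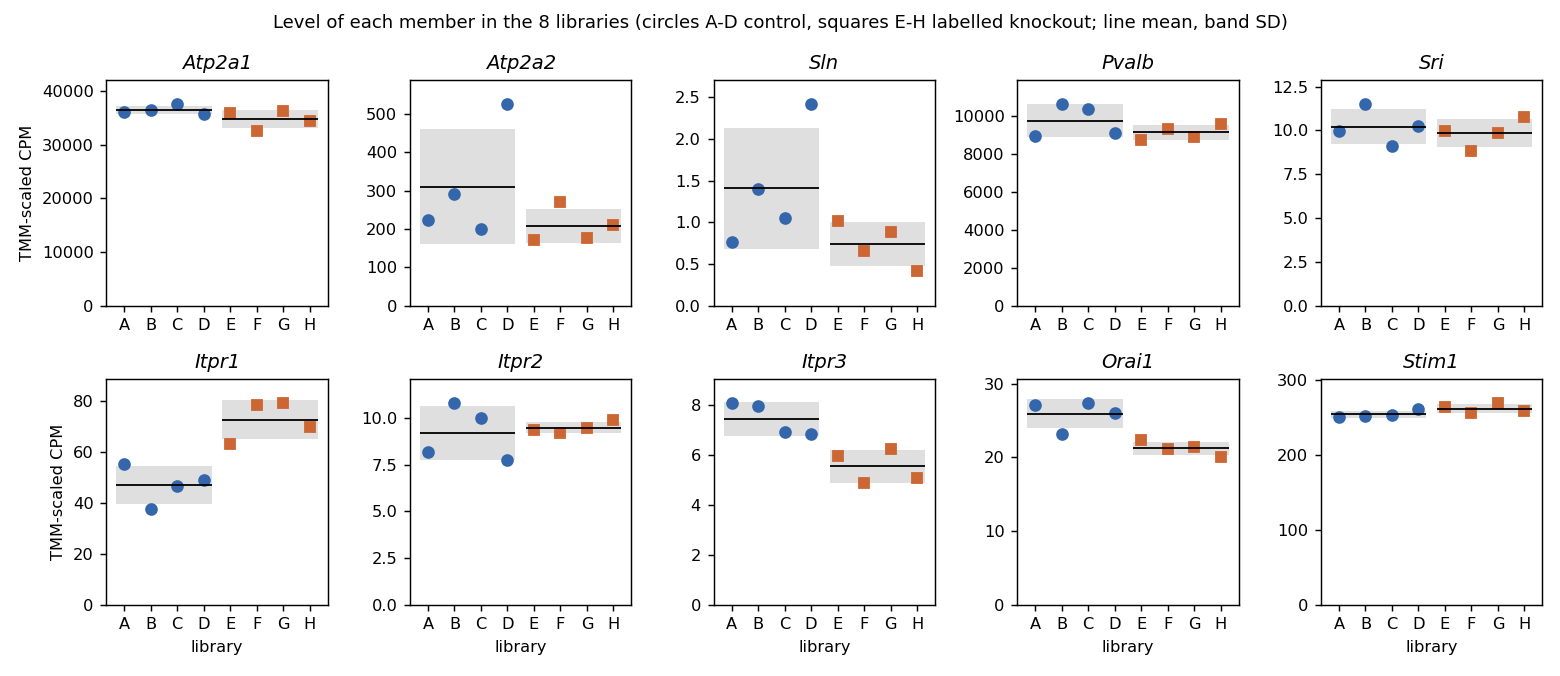
TMM-scaled CPM (y axis, from 0) of each gene in control libraries A to D (circles) and libraries E to H labelled knockout (squares), with the group mean as a line and the SD as a band. Itpr1 was at 63.1 to 79.1 CPM in the squares and at most 55.4 CPM in the circles, and Atp2a2 and Sln were highest in control library D.

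Itpr1 (ENSMUSG00000030102, chromosome 6, 108213096 to 108551109 of mm10, plus strand) is the IP3 receptor gene best known from neurons and smooth muscle. Controls A to D were at 55.4, 37.4, 46.5 and 49.0 CPM, and E to H at 63.1, 78.4, 79.1 and 69.9 CPM. Every library labelled knockout was above every control library, and the values of E and G, where Nr3c1 was at the control level, lay on either side of that of H. The group means were 47.1 ± 7.45 and 72.6 ± 7.58 CPM (SD, n = 4 each). The log2 fold change was 0.63 ± 0.12 (SE, edgeR adjusted p = 0.0119). Its call was kept with any 1 library left out (edgeR, highest adjusted p = 0.0458) and with the dependence on transcript GC content taken out of each library (called the GC trend below, log2 fold change 0.64). Without libraries E and G the difference was as large but missed the threshold (log2 fold change 0.66, edgeR adjusted p = 0.058).

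Neither of the other IP3 receptor genes rose. Itpr3 (ENSMUSG00000042644, chromosome 17, 27057304 to 27122223, plus strand), the receptor gene common in epithelial cells, was at 8.05, 7.94, 6.89 and 6.82 CPM in A to D. In E to H it was at 5.96, 4.86, 6.24 and 5.06 CPM. The groups did not overlap, and Itpr3 fell by 0.43 ± 0.11 on the log2 scale (SE, edgeR adjusted p = 0.0413), with its lowest values in F and H. The call was lost when any 1 library but E was left out (edgeR, highest adjusted p = 0.112). It was also lost by limma-voom, with scaling by library size alone, without E and G (log2 fold change -0.58, edgeR adjusted p = 0.0658) and with the GC trend removed (-0.29, edgeR adjusted p = 0.155).

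Itpr2 (ENSMUSG00000030287, chromosome 6, 146108299 to 146502223, minus strand), the receptor gene prominent in heart muscle, was at 7.77 to 10.8 CPM in control and 9.17 to 9.91 CPM in the libraries labelled knockout. The control values enclosed all of the others. Its log2 fold change was 0.05, with a 95% interval of -0.19 to 0.29 (edgeR adjusted p = 0.818), and its sign turned without control library A or D.

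Per length, Itpr1 was the main IP3 receptor transcript in every library. As a percent of the 3 receptor genes in CPM per kb of exon model, Itpr1 made up 67.6%, 56.0%, 63.8% and 67.6% in A to D and 72.7%, 78.7%, 76.4% and 75.6% in E to H. The share of Itpr3 was 19.1% to 24.1% in control and 9.91% to 13.9% in the libraries labelled knockout. Neither of these shares overlapped between the groups, while that of Itpr2 did (12.4% to 19.9% and 11.3% to 13.3%). With the longest transcript as the length, the share of Itpr1 was 67.7% to 77.8% in control and 81.4% to 85.7% in the others. These shares rest on the same counts as the differences above and were not tested.

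**Figure D2:**
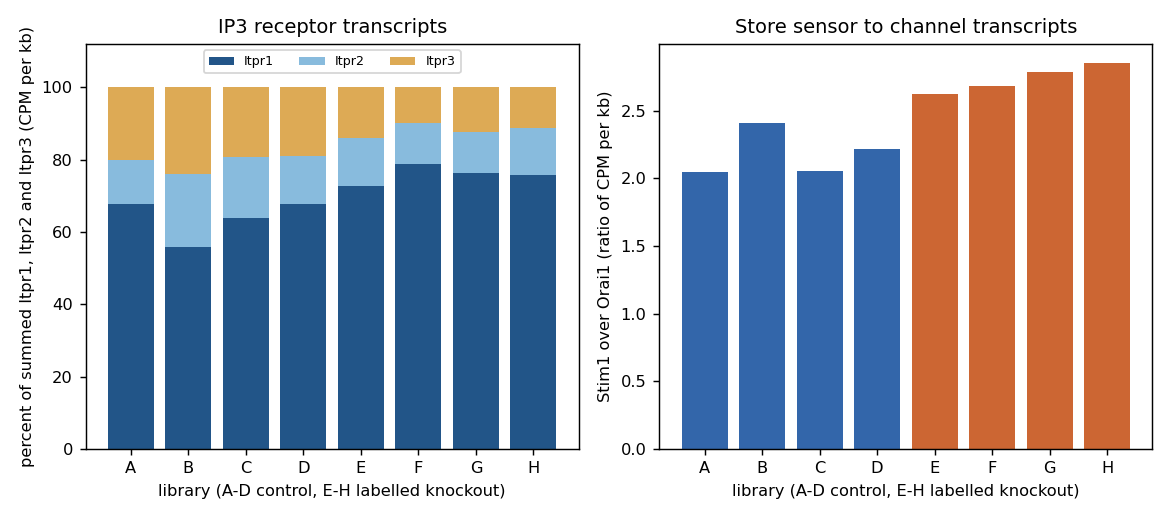
Left, the percent of summed IP3 receptor transcripts (CPM per kb of exon model) from Itpr1, Itpr2 and Itpr3 in each library. Right, the ratio of Stim1 to Orai1 in CPM per kb, which was 2.05 to 2.41 in control libraries A to D (blue) and 2.62 to 2.85 in libraries E to H labelled knockout (orange).

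Of the pair that refills the store, the channel gene fell and the sensor gene did not pass the test. Orai1 (ENSMUSG00000049686, chromosome 5, 123015074 to 123030456, plus strand) was at 27.2, 23.2, 27.3 and 26.1 CPM in A to D and at 22.3, 21.1, 21.4 and 20.1 CPM in E to H. The groups did not overlap, although control library B was less than 1 CPM above library E. Orai1 went from 25.9 ± 1.92 to 21.2 ± 0.918 CPM (SD, n = 4 each). Its log2 fold change was -0.29 ± 0.07 (SE, edgeR adjusted p = 0.0335). Its call was kept without B or E and lost when any other library was left out (edgeR, highest adjusted p = 0.0955). It was also lost without libraries E and G (log2 fold change -0.33, edgeR adjusted p = 0.12) and with library size alone (-0.21).

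Orai1 and Itpr3 have GC-rich transcripts. The longest Orai1 transcript holds 58.6% GC and that of Itpr3 57.5%, against a median of 49.7% over all genes tested, 54.2% over the genes that fell and 43.5% over those that rose. Orai1 with the GC trend removed had a log2 fold change of -0.14 (edgeR adjusted p = 0.188), less than the 0.29 by which it fell before. Itpr1, at 49.5% GC, lies near the median.

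The 250 bases before the RefSeq start of Orai1 (GRCm38.p6, chr5:123014824-123015073, plus strand) and of Itpr3 (chr17:27057054-27057303, plus strand) are shown because these are the 2 genes that fell. Capitals mark the GC box GGGCGG or its reverse complement CCGCCC and the E-box CACGTG.
Orai1: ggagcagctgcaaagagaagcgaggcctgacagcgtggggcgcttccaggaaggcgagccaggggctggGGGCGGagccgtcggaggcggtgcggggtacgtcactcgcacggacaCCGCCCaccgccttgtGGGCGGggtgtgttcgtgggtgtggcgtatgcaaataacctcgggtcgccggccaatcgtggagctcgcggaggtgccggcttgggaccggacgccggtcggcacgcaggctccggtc
Itpr3: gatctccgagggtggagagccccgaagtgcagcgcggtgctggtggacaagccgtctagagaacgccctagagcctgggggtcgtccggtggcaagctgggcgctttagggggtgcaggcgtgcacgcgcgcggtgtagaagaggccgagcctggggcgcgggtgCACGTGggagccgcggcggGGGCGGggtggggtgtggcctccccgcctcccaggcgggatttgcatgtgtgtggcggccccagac

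The Orai1 window is 70.8% GC and holds 3 GC boxes, and the Itpr3 window is 72% GC and holds 1 GC box and 1 E-box. Of 32851 RefSeq windows of the same length, 32.7% hold a GC box and 6.02% this E-box on either strand. The glucocorticoid receptor hexamer AGAACA or TGTTCT, which 16.1% of the windows hold, is in neither. Of the 7 genes among the 10 with a window in the table, Sri holds 1 such hexamer. GC boxes are more numerous in 2 genes that did not pass, Stim1 (8, window 78.4% GC) and Itpr2 (4, window 74.4% GC), than in Orai1 or Itpr3. The windows of Atp2a1, Pvalb and Sri hold 0. No window was available for Itpr1, Sln or Atp2a2.

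Stim1 (ENSMUSG00000030987, chromosome 7, 102267806 to 102437319, plus strand) varied little, at 251, 252, 253 and 261 CPM in A to D and 264, 256, 269 and 258 CPM in E to H. The groups overlapped, with a log2 fold change of 0.04 and a 95% interval of -0.08 to 0.16 (edgeR adjusted p = 0.663). The log2 fold change of Stim1 was 0.15 with the GC trend removed (edgeR adjusted p = 0.144). With library size alone it was 0.12 (edgeR adjusted p = 0.259). In CPM per kb of exon model, Stim1 exceeded Orai1 by a factor of 2.05 to 2.41 in control and 2.62 to 2.85 in the libraries labelled knockout. These ranges did not overlap. With the longest transcript as the length the factor was 3.97 to 4.67 and 5.09 to 5.54, so its size depends on the lengths taken for the 2 genes.

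The pump genes did not pass the test. Atp2a1 (ENSMUSG00000030730, chromosome 7, 126445858 to 126463108, minus strand) was the second most abundant gene of all, with 3.31% to 3.78% of the counts of a library. It was at 36181, 36414, 37598 and 35644 CPM in A to D and at 35972, 32613, 36233 and 34469 CPM in E to H. The groups overlapped, and the 95% interval of the log2 fold change, -0.21 to 0.07, spans 0 (edgeR adjusted p = 0.536). Its sign turned with scaling by library size alone (0.01) and with the GC trend removed (0.05). On the opposite strand Rabep2 shares 21.9% of the Atp2a1 exon model, and had 1551 counts over the 8 libraries, against at least 1289262 of Atp2a1 in each.

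Atp2a2 (ENSMUSG00000029467, chromosome 5, 122453513 to 122502225, minus strand), the pump gene of slow fibres, was at 222, 293, 200 and 527 CPM in A to D and 172, 270, 178 and 210 CPM in E to H. Control library D stood above all others, and the remaining 7 libraries overlapped. The log2 fold change was -0.58 ± 0.33 (SE, edgeR adjusted p = 0.297), and -0.20 without D. Per length, Atp2a2 was 0.838% of the summed pump transcripts Atp2a1 and Atp2a2 in D, and 0.273% to 0.472% in the other libraries. The fast pump transcript exceeded the slow one in each library.

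Slow fibre markers moved with Atp2a2. The 7 markers Myh7, Tnnt1, Tnni1, Tnnc1, Myl2, Myl3 and Tpm3, contractile proteins of slow fibres, summed to 867, 1204, 697 and 1714 CPM in A to D and 668, 1065, 586 and 689 CPM in E to H. Libraries D, B, F and A were the highest 4 in both, in that order. By edgeR none of the 7 markers passed (2 had an unadjusted p under 0.05, DESeq2 called 1 and limma-voom 2), and their median log2 fold change was -0.56. Their part in the value of Atp2a2 was not tested.

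**Figure D3:**
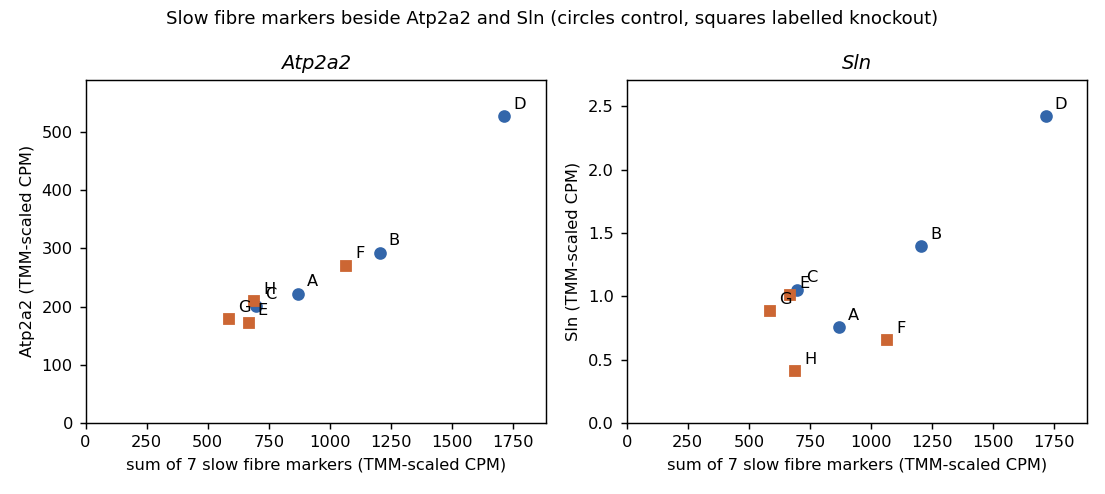
Atp2a2 (left) and Sln (right) in TMM-scaled CPM against the summed CPM of 7 slow fibre markers, 1 point per library (circles control, squares labelled knockout). Control library D, at 1714 CPM of slow fibre markers, is highest on each axis.

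Sln (ENSMUSG00000042045, chromosome 9, 53850164 to 53854560, plus strand) was scarce. It had 27, 61, 40 and 110 counts in A to D and 39, 31, 37 and 22 counts in E to H, or 0.758, 1.40, 1.05 and 2.42 CPM and 1.01, 0.655, 0.881 and 0.410 CPM. As with Atp2a2, D was highest, and the groups overlapped. The log2 fold change was -0.95 ± 0.38 (SE), with an unadjusted p of 0.0296 and an edgeR adjusted p = 0.139. It was -0.55 without D and -1.41 without E and G, and no setting in which it was tested gave an adjusted p under 0.05. Other regulators of the pump on the list of pump regulators, phospholamban (Pln) and myoregulin (Mrln), were at 1.52 ± 0.515 and 43.7 ± 4.93 CPM in control and 1.29 ± 0.403 and 40.0 ± 9.92 CPM in the libraries labelled knockout (SD, n = 4 each).

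The soluble calcium-binding proteins did not pass the test either. Pvalb (ENSMUSG00000005716, chromosome 15, 78191114 to 78206400, minus strand) was at 8912, 10614, 10362 and 9069 CPM in A to D and 8704, 9310, 8855 and 9575 CPM in E to H. The libraries of the groups were interleaved, with a log2 fold change of -0.10 and a 95% interval of -0.27 to 0.07 (edgeR adjusted p = 0.452). Sri (ENSMUSG00000003161, chromosome 5, 8046078 to 8069379, plus strand) was at 9.10 to 11.5 CPM in control and 8.82 to 10.7 CPM in the others (log2 fold change -0.05, 95% interval -0.26 to 0.16, edgeR adjusted p = 0.753). The sign of Sri turned without control library B (0.02) and with library size alone (0.02), and its log2 fold change was -0.26 with the GC trend removed (edgeR adjusted p = 0.117). At 40.2% GC, the longest Sri transcript is the least GC-rich of the 10.

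**Figure D4:**
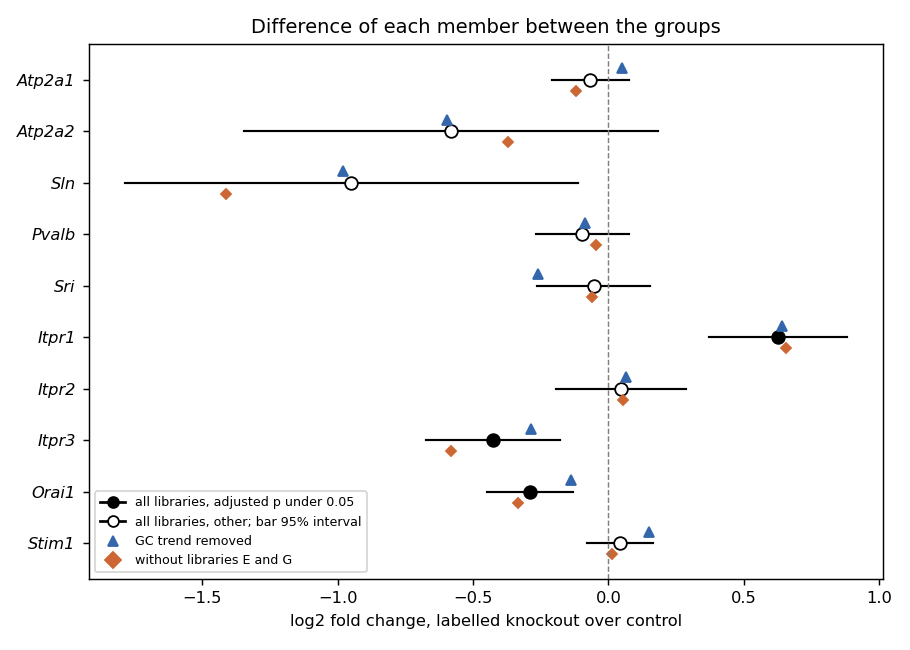
Log2 fold change of the libraries labelled knockout over control for each gene, with all 8 libraries (circles, filled where the edgeR adjusted p was under 0.05, bars 95% intervals), with the GC trend removed (triangles) and without libraries E and G (diamonds). Itpr1 lies at 0.63, 0.64 and 0.66, while Orai1 lies at -0.29, -0.14 and -0.33.

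Levels of different genes were compared per length, in mean control CPM per kb of exon model. Atp2a1 (10486) and Pvalb (9356) stood far above Atp2a2 (51.1), Stim1 (24.5) and Orai1 (11.3). Itpr1 (2.57), Sri (2.10), Sln (1.07), Itpr3 (0.823) and Itpr2 (0.620) were lowest. With the longest transcript as the length, Stim1 (58.3) came before Atp2a2 (54.7), and the order of the others was the same.

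The wider calcium system was read from 5 lists of 61 genes, of which 59 were in the table and 52 were tested. By edgeR 1 rose and 5 fell, 6 of 52, beside 8.45% of all genes. With library size alone as the scaling, 3 rose and 0 fell. Their median log2 fold change was -0.0043. Leaving out B gave 4 calls and leaving out E gave 6 (2 rose and 4 fell), where 12.1% and 7.95% of all genes were called. Leaving out A, C, D or H left 2 calls each. No call was left without F, without G or without both E and G, where 4.30%, 2.51% and 1.49% of all genes were called. In these 3 fits, 13, 11 and 13 of the listed genes had an unadjusted p under 0.05. On all libraries DESeq2 called 7, beside 13.8% of all genes, and limma-voom called 6, beside 12.3%. The share of all genes at an unadjusted p under 0.05 was not taken, so counts at that threshold have no background here.

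Among 10 pumps and exchangers, Atp2c1, the calcium and manganese pump of the Golgi, rose from 27.8 ± 2.00 to 35.2 ± 1.94 CPM, by 0.34 on the log2 scale (edgeR adjusted p = 0.0183). Atp2a3, the SERCA gene of blood and endothelial cells, fell from 13.3 ± 1.46 to 9.70 ± 1.18 CPM (-0.46, edgeR adjusted p = 0.0277). Both calls ended with the GC trend removed, with Atp2c1 at 0.16 and Atp2a3 at -0.32. Leaving out A, F or G also ended that of Atp2c1, and leaving out A, D, F, G or H that of Atp2a3. The other 8 did not pass, among them the plasma membrane pump genes Atp2b1 to Atp2b4 and the sodium-calcium exchanger genes Slc8a1 to Slc8a3.

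Among 5 tested buffers 1 passed. Casq1, the calsequestrin that stores calcium in the reticulum of fast fibres, fell from 4334 ± 378 to 3524 ± 207 CPM (-0.30, edgeR adjusted p = 0.0433). That call was kept with D left out and lost with any other library left out, and with the GC trend removed (-0.23).

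Of 20 tested genes for making IP3, removing it or acting as partners of its receptors, 3 fell and 0 rose by edgeR. Of the 20, 9 had an unadjusted p under 0.05, and DESeq2 and limma-voom each called 3. Over all genes, edgeR called 4.41% lower and 4.04% higher, while DESeq2 called 13.8% and limma-voom 12.3% in either direction. The 3 that fell by edgeR are phospholipase C genes, whose products make IP3. Plcb4 fell from 23.6 ± 2.85 to 17.7 ± 1.08 CPM (-0.42, edgeR adjusted p = 0.0214), Plcb1 from 3.11 ± 0.644 to 1.99 ± 0.267 CPM (-0.65, edgeR adjusted p = 0.0451) and Plcd1 from 10.4 ± 0.397 to 8.40 ± 0.634 CPM (-0.30, edgeR adjusted p = 0.0469). With the GC trend removed Plcb4 (-0.54) and Plcb1 (-0.74) stayed called and Plcd1 did not (-0.17). Leaving out 1 library ended the call of Plcb4 (C, D, F or G), of Plcb1 (any but A or E) and of Plcd1 (any but E). Plcb3 (-0.16), Plcg1 (-0.11), Plce1 (-0.07) and Plcd4 (0.24) did not pass. Plcd4 was the most abundant of the phospholipase C genes named here and leaned the other way from the 3 that fell. It was at 190 ± 22.5 CPM in control and 224 ± 20.7 CPM in the libraries labelled knockout (edgeR unadjusted p = 0.0288, adjusted p = 0.136).

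By edgeR no gene passed among 11 tested genes of store-operated entry (3 had an unadjusted p under 0.05, DESeq2 called 1 and limma-voom 0). The same held for 6 tested regulators of the pump (0 had an unadjusted p under 0.05, DESeq2 called 0 and limma-voom 0). With the GC trend removed, edgeR called 2 of the 11 and 0 of the 6, beside 4.64% of all genes. In the first list the smallest p-values belonged to the scaffold genes Homer1 (65.8 ± 3.09 and 81.6 ± 11.3 CPM, edgeR adjusted p = 0.064) and Homer2 (41.2 ± 3.92 and 34.6 ± 2.99 CPM, edgeR adjusted p = 0.0873). The paralogues of the members, Stim2, Orai2 and Orai3, had log2 fold changes of 0.12, 0.11 and 0.08. In the second list the smallest p-values were those of S100a1 (log2 fold change -0.37, edgeR adjusted p = 0.275) and the chaperone Canx (0.11, edgeR adjusted p = 0.396).

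**Figure D5:**
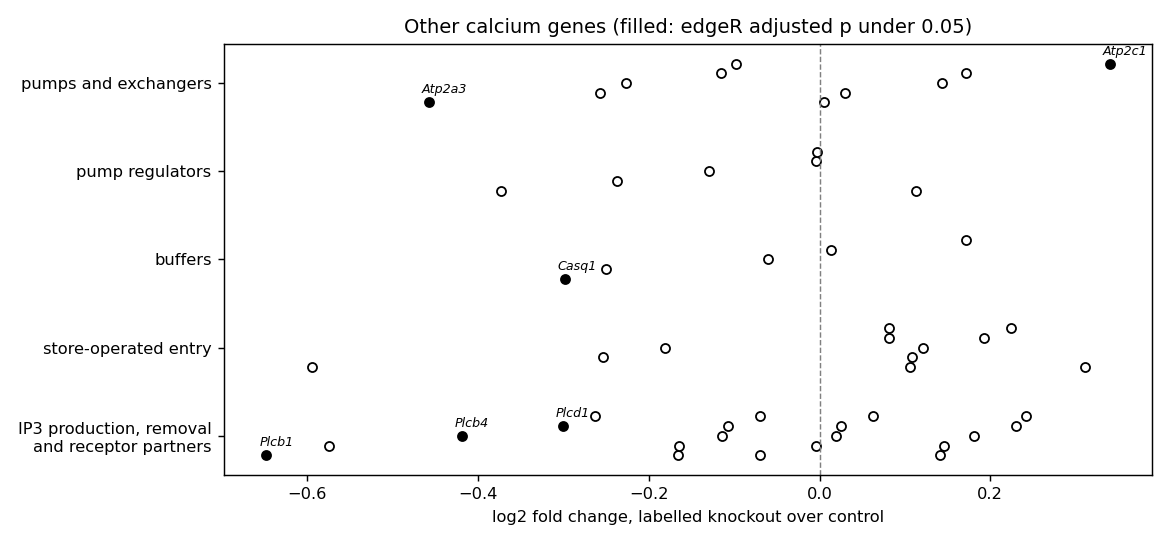
Log2 fold change (x axis) of each tested gene in the 5 lists of other calcium genes, 1 point per gene, filled and named where the edgeR adjusted p was under 0.05. The filled point to the right of 0 is Atp2c1, and 5 lie to the left.

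Transcripts of other cell types differed between the groups beside these results. All 3 Schwann cell markers (Mbp, Prx, Sox10) fell, and their sum was 56.9 to 95.7 CPM in control and 21.3 to 34.8 CPM in the libraries labelled knockout. Of 5 smooth muscle markers 4 fell (Acta2, Myh11, Tagln and Cnn1), with a sum of 151 to 184 CPM against 77.5 to 109 CPM. Endothelial markers summed to 293 to 326 CPM against 276 to 298 CPM, with 1 of 5 (Cdh5) called lower by edgeR. Of the 5, 4 had an unadjusted p under 0.05, and DESeq2 and limma-voom each called 2. The 4 that did not pass by edgeR were split, with log2 fold changes of -0.18 (Pecam1), -0.27 (Emcn), 0.23 (Kdr) and 0.07 (Tek). Leukocyte markers summed to 14.6 to 26.5 CPM against 23.4 to 38.5 CPM, with 1 of 4 (Adgre1) higher by edgeR. Of these 4, 2 had an unadjusted p under 0.05, and DESeq2 and limma-voom each called 2. Within the leukocyte sum Ptprc was at 11.1, 10.3 and 12.2 CPM in A, E and G and at 1.76 to 4.34 CPM in the other libraries. No marker of these 4 lists was at 0 in any library. Itpr1 rose while the Schwann cell and smooth muscle sums were lower, and Itpr3, Orai1, Atp2a3 and Plcb4 fell beside them. The part of these cells in either direction was not tested.

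Of 7 fast fibre markers, Mylpf fell and 6 did not pass, with a summed level of 116008 to 154897 CPM in control and 109096 to 130761 CPM in the libraries labelled knockout. B cell markers summed to 26.2 CPM in A, 17.6 in E and 17.0 in G, and to at most 2.71 CPM in the other 5 libraries. Of 4 fibroblast markers Dcn rose and Col1a1 fell by edgeR, while Pdgfra (log2 fold change 0.38) and Lum (0.56) did not pass. All 4 had an unadjusted p under 0.05, and DESeq2 called 4 and limma-voom 3. Of 4 adipocyte, 3 satellite cell and 4 B cell markers none passed by edgeR. In these last 3 lists 0 markers had an unadjusted p under 0.05, and DESeq2 and limma-voom called 0.

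Genes with the most similar pattern were taken by Pearson's r of log2 CPM over the 8 libraries, which includes the difference between the groups and shares each library's depth. For Itpr1 they were Osbpl6 (r = 0.973), Nup98 (0.969) and Psd3 (0.967), of which Osbpl6 and Psd3 were also called higher. For Orai1 they were Med16 (0.990), Ipo4 (0.987) and Hspb2 (0.987), and for Itpr3 Frrs1 (0.990), Tpcn2 (0.983) and Zfp414 (0.976). For Atp2a2 the list holds the slow troponin gene Tnnt1 (0.946) between Vps26b (0.957) and Ift81 (0.938), and for Sln it begins with Myom3 (0.970), which encodes a protein of the sarcomere's M-band, before Kazn (0.966) and Atg9a (0.934). Those of Atp2a1 were St3gal3 (0.968), Abcb9 (0.961) and Rprd1b (0.960), and those of Pvalb were Mrps35 (0.976), Calr3 (0.955) and Kctd5 (0.941). Sri had Lrp2bp (0.979), Fam57a (0.964) and Slc39a1 (0.962), Itpr2 had Slc25a20 (0.951), Bckdhb (0.950) and Eci1 (0.947), and Stim1 had Fbxw11 (0.957), Wls (0.953) and Ttll7 (0.950). These are the top 3 of 10584 genes compared (10585 for Sln), so a high r is a description only.

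Around Itpr1, none of 8 tested genes within 500 kb passed by edgeR (3 had an unadjusted p under 0.05, DESeq2 called 1 and limma-voom 0). Within 500 kb of Itpr3, 2 of 18 were called: the kinase gene Ip6k3, with a log2 fold change of -1.19, and Crebrf (0.51). Near Orai1, 1 of 20 was called, Tmem120b (-0.38). Near the genes that did not pass, the calls were 3 of 8 for Sln, 3 of 33 for Atp2a1 and 2 of 15 for Pvalb. They were 1 of 14 for Itpr2, 1 of 23 for Stim1, 0 of 21 for Atp2a2 and 0 of 4 for Sri, beside 8.45% of all genes. A predicted antisense gene, Gm44040, overlaps 0.59% of the Itpr1 exon model and had 334 counts in all 8 libraries.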

How the data were processed

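Per the labels' protocols, poly(A) RNA of whole gastrocnemius was sequenced from strand-marked libraries. Per the submitters' processing notes and the design text, the authors aligned reads to mm10 with TopHat 2 and counted them per gene with HOMER. The raw counts the authors deposited cover 48709 genes. Their annotation release and strand setting were not given in the sources used here. Columns were assigned to groups by name, since their numbers occur in no label. Separate mice are not stated, so a p-value reflects only how libraries vary.

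From these counts, genes were kept with filterByExpr, scaled by TMM and tested with edgeR 4.0.16 (R 4.3.3, robust quasi-likelihood, no covariate), adjusted over 14712 genes. SE is the absolute log2 fold change over the square root of F, and 95% intervals use the test's degrees of freedom. The test was checked on simulated counts. The members and lists were chosen with earlier results of these data known. Named are all members, called genes of each list of other calcium genes (or the 2 of smallest p) and the 3 most similar genes per member. Neighbours within 500 kb, called cell type markers and some uncalled list genes were named after their values were seen. Arln and Erln had no match. Some listed genes are not reported here, and the counts and sums over their lists leave them out. Exon models, GC content and coordinates came from GENCODE M21 (GRCm38), and promoter windows from RefSeq (GRCm38.p6). Sln had at most 110 counts, so counting error matters there. DESeq2 1.42.0 and limma 3.58.1 (voom with a quality weight estimated for each library, called limma-voom) were among the alternatives.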

Additional observations from a re-analysis of the deposited data

How the results depend on the processing

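Itpr1 kept its direction under all 18 alternatives and its call under 17 of them, with log2 fold changes of 0.54 to 0.72. Itpr3 kept its direction under all 18 and its call under 7 (-0.58 to -0.29), and Orai1 under all 18 and 9 (-0.33 to -0.14). With 1 library left out, 373 to 1794 of all genes were called, 1 to 3 of the members and 0 to 6 of the other calcium genes (11 to 17 at an unadjusted p under 0.05). The DESeq2 Wald test called 2026 genes. Library size alone called 1 member and 3 other calcium genes, and moved the median log2 fold change of all genes from -0.01 to 0.06 while higher calls went from 47.8% to 69.8% of calls. The alternatives chosen after the data were seen follow. Without libraries E and G, edgeR called 226 genes, 0 members (4 at an unadjusted p under 0.05) and 0 other calcium genes (13 at an unadjusted p under 0.05). With the GC trend removed it called 683 genes, 1 member and 4 other calcium genes (1 rose and 3 fell). Scaling without the 20 most abundant genes, also added later, called the same 3 members. Signs turned for genes that were never called: Atp2a1 with library size alone (0.0088) and the GC trend removed (0.0508), Sri with library size alone (0.0169) and without control library B (0.0158), and Itpr2 without A (-0.0007) or D (-0.0283). With 1 library left out, Itpr2 ranged from -0.0283 to 0.14 and Sri from -0.102 to 0.0158. The cause was not tested. No paired analysis was possible because the columns carry no replicate number that the labels give. Depth limits Sln, at 22 to 110 counts.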
